A study of Mus musculus with 6 samples.

Results

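The genes described here act in the metabolism of arginine, ornithine and polyamines or in its control. They were chosen by name: Arg1, Arg2, Oat, Odc1, Azin1, Srm, Sat1, Smox, Ass1 and Asl, taken at every probe annotated with one of these 10 symbols. The array held 17 such probes among 45281, covering 9 of the 10 genes, and the signal of Sat1 was not analysed here. All 17 lay above the background limit of 138, a cut on the mean over the 6 arrays that is set at the most frequent intensity plus 3 SD. The set was proposed with the contrast below already known, in particular the low Arg1 signal in knockdown cells, so all values of the members are given as a description, and whether the fit over all probes called a member supports nothing further.

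An Illumina mouse bead array measured RNA in 3 samples labelled Glis2KD and 3 labelled Control. Glis2KD samples were immortalized proximal tubular cells of C56BL/6 background with a stable short hairpin RNA against Glis2, a Krüppel-like transcription factor whose loss causes cystic and fibrotic kidney disease. Control samples were the same kind of cells with a hairpin against GFP. Both groups had been infected with lentivirus and were harvested 7 days later. How many hairpin sequences, clones or separate infections stand behind each group, and how the cells were immortalized, were not found in the labels, so the spread between arrays may be technical. Lower Glis2, any other action of its hairpin and chance differences between the cell populations cannot be told apart.

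Arginase hydrolyses arginine to ornithine and urea. Ornithine then has 2 main fates: ornithine aminotransferase sends it towards glutamate and proline, and ornithine decarboxylase turns it into putrescine, which spermidine synthase extends to spermidine. Polyamines bind nucleic acids and are needed for growth and translation. In the kidney, proximal tubule cells are known as a main site of arginine synthesis from citrulline and also hold ornithine aminotransferase.

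The array carried Glis2 on a pair of probes. The brighter one read 169, 161 and 176 on the Glis2KD arrays and 278, 234 and 230 on the Control arrays (log2 fold change -0.55 ± 0.089, SE, limma adjusted p = 7.16e-05), in the direction of the labels. The signal fell by 31.6% as deposited, and it fell by 58.5% once the most frequent value of 113.5, taken as background, was subtracted. The second probe, at 161 ± 15.9 in Glis2KD and 206 ± 13.6 in Control (SD, n = 3 each), fell by 22.1% as deposited (limma adjusted p = 0.00577). After subtraction its ratio of Glis2KD over Control was 0.495, which was no longer called. The submitters state a knockdown efficiency over 80%, a test that is not analysed here. A probe is called below where its limma adjusted p, over all probes, is under 0.05. Arrays correlated at r = 0.995 within groups and at 0.980 to 0.982 between them over the 45281 probes, and 40.2% of probes lay above the limit on every array. Of 20 proximal tubule markers measured, 4 were above the limit, namely Aqp1, Mme, Dab2 and Pax8, and 3 of these were called lower in Glis2KD and 0 higher. Mme passed through Control only, with all 3 Glis2KD arrays under the limit. Lrp2, Slc34a1, Slc5a2, Slc22a6 and 7 others were under it on all 6 arrays. Summed over the 20 markers, intensity was 5420 to 5787 on Glis2KD arrays against 15900 to 17789 on Control arrays, a gap made mostly by Aqp1 (means of 365 in Glis2KD and 9760.01 in Control), and the part of this shift in the results below was not tested. Arg1 is also a known marker of macrophages. Of 11 leukocyte markers measured, 2 were above the limit, Csf1r (higher in Glis2KD) and Cd14 (lower), while Ptprc, Adgre1, Itgam, Lyz2 and Cx3cr1 were under it on every array. Of 3 podocyte markers measured, Nphs1 was under the limit on all 6 arrays (log2 fold change -0.03, not called). The 2 above the limit, Synpo and Podxl, were called higher, with log2 fold changes of 0.42 and 0.39. The summed podocyte list was 1577 to 1642 on Glis2KD arrays against 1207 to 1321 on Control arrays. Of 8 fibroblast and pericyte markers measured, 5 were under the limit on all 6 arrays. The 1 above the limit, Dcn, was called lower (-0.98), with 2 Glis2KD arrays under the limit. Col1a2, whose mean was under the limit, was called higher (0.26, limma adjusted p = 0.0386). Of 8 distal nephron and collecting duct markers measured, 3 were above the limit (Slc12a3, Slc12a1 and Atp6v1b1) and 0 were called. Slc12a3 averaged 1148 in Glis2KD and 1244 in Control, and the other 2 were near the limit. Of 6 endothelial markers measured, 0 were above the limit. The part of these markers in the results was not tested.

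For the members the RefSeq promoter table of GRCm38.p6 was searched over its windows of 250 bases. This promoter table held Oat, Odc1, Ass1, Smox and Sat1. For Oat and Ass1 the window ends at the base before the gene start. For Odc1 and Smox it runs past the gene start used for neighbouring genes. Shown are Oat and Ass1, whose signal was higher in Glis2KD cells, and Smox, whose signal was lower. Capitals mark the E-box CACGTG, a palindrome bound by Myc and related factors.
Oat promoter, chr7:132576399-132576648, minus strand: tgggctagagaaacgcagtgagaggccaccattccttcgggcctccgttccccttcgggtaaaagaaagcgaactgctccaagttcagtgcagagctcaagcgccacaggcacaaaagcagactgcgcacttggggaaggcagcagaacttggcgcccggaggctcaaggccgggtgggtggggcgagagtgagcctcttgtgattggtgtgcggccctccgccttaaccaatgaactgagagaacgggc
Ass1 promoter, chr2:31470020-31470269, plus strand: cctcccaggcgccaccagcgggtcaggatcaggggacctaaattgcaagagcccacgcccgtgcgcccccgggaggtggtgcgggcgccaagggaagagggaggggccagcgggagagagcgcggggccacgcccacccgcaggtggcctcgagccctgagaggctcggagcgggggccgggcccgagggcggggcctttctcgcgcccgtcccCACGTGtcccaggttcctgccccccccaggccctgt
Smox promoter, chr2:131491612-131491861, plus strand: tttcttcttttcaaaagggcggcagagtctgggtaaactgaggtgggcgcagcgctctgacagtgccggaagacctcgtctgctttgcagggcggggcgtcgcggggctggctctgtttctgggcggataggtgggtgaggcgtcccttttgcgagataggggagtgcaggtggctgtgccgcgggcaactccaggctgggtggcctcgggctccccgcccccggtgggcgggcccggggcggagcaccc
Ass1 held 1 E-box, starting 36 bases before the start, and the other 4 promoters held none, against 6.02% of all 32851 promoters in the table. None of the 5 held ACCACCC, letters from the centre of the known Gli binding site (3.92% of all promoters), or TATAAA (12.4%), each searched on both strands. These matches describe letters only.

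Arginase 1 showed the largest difference among the members. Arg1, the cytosolic arginase best known from liver, read 231, 260.4 and 200.2 at its brighter probe (ILMN_2952275) on the Glis2KD arrays, against 2700.3, 1901 and 2044 on the Control arrays. Every knockdown array lay far below every control array. The log2 fold change was -3.26 ± 0.11 (SE), or 9.55-fold lower in Glis2KD, with a 95% interval of -3.49 to -3.02. Of the 9577 genes above background, 7 had a log2 fold change this low, Arg1 included, and its 50 neighbouring genes on chromosome 10 had a median of 0.16. The second Arg1 probe (ILMN_2775157) read 129, 142 and 172 on Glis2KD arrays and 629.7, 582 and 656 on Control arrays, with 1 knockdown array under the limit and a log2 fold change of -2.08 ± 0.097. The most frequent deposited intensity, 113.5, was taken as background. After subtraction the brighter probe had -4.18 ± 0.26 (SE), or 18.1-fold lower, and the second had -4.08 ± 0.53, a size that rests on knockdown arrays at or near background.

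Arginase 2, the mitochondrial isoform and the one usually described in kidney, was near background. Its only probe (Arg2, ILMN_2669164) read 128, 115 and 137 on the Glis2KD arrays and 173, 176 and 153 on the Control arrays. All knockdown arrays were under the limit and all control arrays above it, so the difference is a bound: Arg2 was at least 1.21-fold lower in Glis2KD. The measured log2 fold change was -0.40 ± 0.089 (SE). The 50 neighbouring genes above background on chromosome 12 had a median of -0.17, and relative to them Arg2 had -0.24 and was no longer called.

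Of the enzymes that make arginine from citrulline, Ass1 was higher in Glis2KD and Asl was not called on either probe. Ass1, argininosuccinate synthase, which joins citrulline and aspartate, read 194, 229 and 228 on the Glis2KD arrays against 127, 114 and 156 on the Control arrays. The groups did not overlap, and 2 of 3 control arrays were under the limit. Its log2 fold change was 0.72 ± 0.10 (SE). After background subtraction it was 2.21 ± 0.48 and no longer called. That size depends on the floor set on intensities, since the 2 Control arrays under the limit lay at or near that floor after subtraction. Asl is argininosuccinate lyase, which releases arginine. Its probe ILMN_2670542 read 368, 356 and 372 on Glis2KD arrays and 336, 319.7 and 301 on Control arrays, without overlap, for a log2 fold change of 0.20 with a 95% interval of 0.026 to 0.37, which was not called after adjustment. The 50 neighbouring genes of Asl on chromosome 5 had a median of 0.19. The other Asl probe (ILMN_1254257) overlapped between groups, averaging 248 ± 30.8 in Glis2KD and 245 ± 8.49 in Control (SD, n = 3 each), with an interval of -0.18 to 0.20 on the log2 scale.

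**Figure D1:**
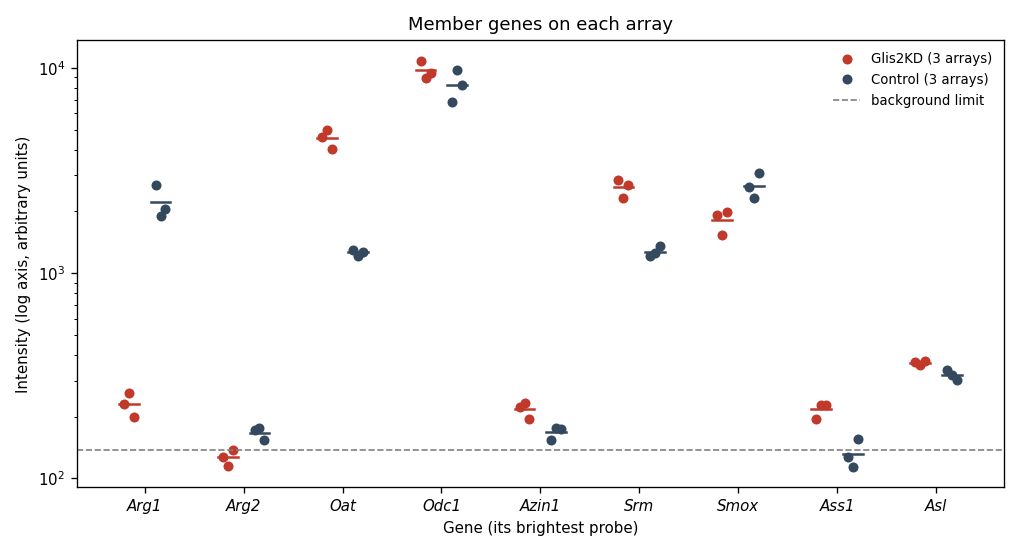
Intensity of the brightest probe of each of 9 member genes on the 3 Glis2KD arrays (red, left) and the 3 Control arrays (dark, right), on a log axis in arbitrary units, with bars at group means and a dashed line at the background limit of 138. Arg1 and Smox lie lower and Oat and Srm higher on every Glis2KD array, the Odc1 groups overlap, and Arg2 lies under the limit on all Glis2KD arrays. Levels of different genes come from different probes and are not comparable with each other.

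Ornithine aminotransferase was the member with the largest higher signal. Oat read 4627, 5004 and 4026 on the Glis2KD arrays against 1302, 1215 and 1273 on the Control arrays. Each knockdown array exceeded each control array by a wide margin. The log2 fold change was 1.84 ± 0.089 (SE), a ratio of 3.59 with a 95% interval of 3.16 to 4.08, and 46 of the 9577 genes above background, Oat included, had one as high. Over the alternatives run it stayed between 1.70, relative to 50 neighbouring genes on chromosome 7, and 1.94, with background subtracted, and it was called in each. Oat has a single probe on this array, so no second probe bears on it.

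Ornithine decarboxylase, the first enzyme of polyamine synthesis, showed no called difference. Odc1 read 10865, 8979.97 and 9418 on the Glis2KD arrays, against 6809, 9718 and 8259 on the Control arrays. The groups overlapped, with Control replicate 2 above 2 of the Glis2KD arrays. The log2 fold change was 0.25 ± 0.11 (SE), with an unadjusted 95% interval of 0.026 to 0.47, so a ratio between 1.02 and 1.39 is covered. Over the fits that left out 1 array it ran from 0.12, without Control replicate 1, to 0.37, without Control replicate 2, and only the fit without Control replicate 2 called it. Relative to the 50 neighbouring genes on chromosome 12, with a median of -0.090, it was 0.34 and called. Azin1, antizyme inhibitor 1, is an inactive relative of the decarboxylase that keeps antizyme from sending the enzyme to degradation. It read 224, 233 and 194 on Glis2KD arrays and 155, 175 and 174 on Control arrays. The groups did not overlap, and the log2 fold change was 0.37 ± 0.090, or 0.94 ± 0.25 and no longer called after background subtraction.

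Spermidine synthase was higher on all 3 of its probes. At the brightest (ILMN_2809611) Srm read 2831, 2336 and 2696 on the Glis2KD arrays against 1208, 1255 and 1361 on the Control arrays, a log2 fold change of 1.04 ± 0.089 (SE) or a ratio of 2.05. Probe ILMN_1225880 averaged 1658 ± 174 in Glis2KD and 866 ± 10.8 in Control (SD, n = 3 each), a log2 fold change of 0.93. Probe ILMN_2630641 gave the smallest, 0.69 ± 0.11, from 1406 ± 151 in Glis2KD and 875 ± 148 in Control (SD, n = 3 each). On none of the 3 probes did the groups overlap, and the neighbouring genes on chromosome 4 had a median of 0.0058. After background subtraction the last probe gave 0.78 and was no longer called.

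Spermine oxidase, which converts spermine back to spermidine with release of hydrogen peroxide, was lower on all 5 of its probes. At probe ILMN_1247267 Smox read 1931, 1540.3 and 1995 on the Glis2KD arrays against 2617, 2323 and 3063 on the Control arrays. At probe ILMN_2597030 it read 1459, 1314 and 1388 on Glis2KD arrays and 2100.1, 2088 and 2209 on Control arrays. The knockdown arrays lay below the control arrays throughout, with log2 fold changes of -0.55 ± 0.11 and -0.62 ± 0.082 (SE). The 3 dimmer probes gave -0.51, -0.42 and -0.34, also without overlap, while the 50 neighbouring genes on chromosome 2 had a median of -0.13. The smallest change, at ILMN_1256359, was called in only 8 of the 15 alternatives run for it. It lost its call, among others, without Glis2KD replicate 1 (-0.19), Control replicate 1 (-0.35) or Control replicate 3 (-0.27). After background subtraction the 5 probes gave -0.49 to -0.84, and only ILMN_2597030 was called.

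**Figure D2:**
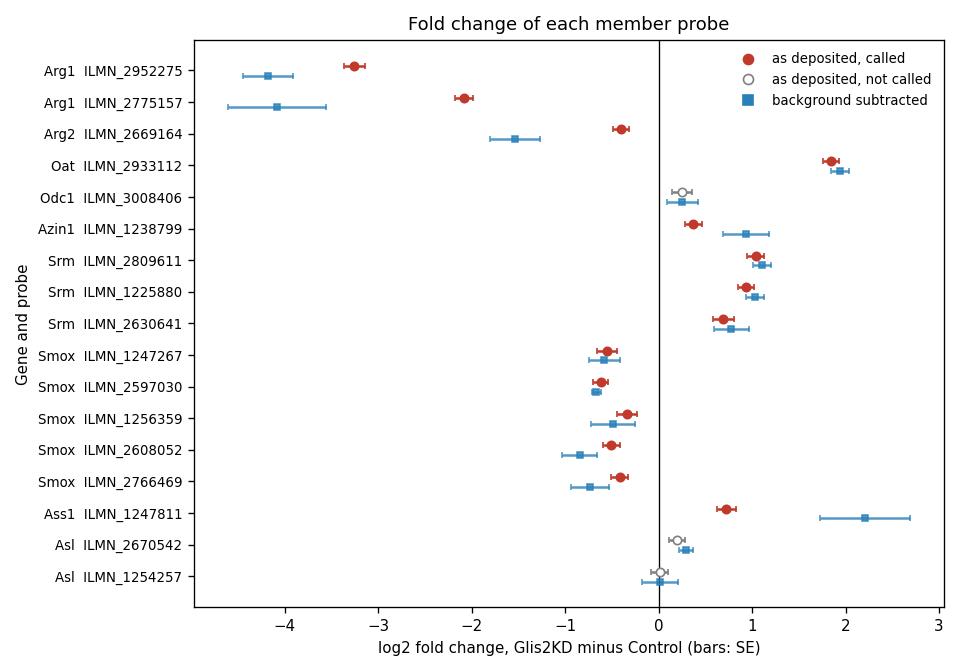
Log2 fold change, Glis2KD minus Control, of each of the 17 member probes with its SE, from the deposited intensities (circles, filled where called) and after background subtraction (blue squares). Both Arg1 probes and all 5 Smox probes lie below 0 and Oat and all 3 Srm probes above it. Subtraction moves the second Arg1 probe, Ass1 and Arg2 furthest, each with a wider error.

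Counted over probes, 14 of 17 were called, 6 higher and 8 lower in Glis2KD. Over all probes 15.6% were called, 7.84% higher and 7.76% lower, and over the probes above background 37.9%. The groups did not overlap on 15 of the 17, against 26.3% of all probes and 48.8% of those above background. By gene, taking the brightest probe, 7 of 9 were called, 4 higher (Oat, Azin1, Srm, Ass1) and 3 lower (Arg1, Arg2, Smox), where 22.0% of all genes (10.9% higher and 11.1% lower) and 42.5% of genes above background were called. The median log2 fold change of the 9 genes was 0.25, against 0.0040 over all 19057 genes. By group mean, Arg2 passed the limit in Control only and Ass1 in Glis2KD only. Since the members were proposed with this contrast known, nothing is read from these counts. With background subtracted, 7 probes were called, namely both of Arg1, those of Arg2 and Oat, the brightest and the second probe of Srm and 1 of Smox, and by brightest probe 4 genes (Arg1, Arg2, Oat and Srm). That fit called 7.56% of all probes and 11.1% of all genes by brightest probe. Arg2 had -1.54 ± 0.27 (SE) in that fit, a value that depends on the floor of 16 set on intensities. All 3 of its Glis2KD arrays were under the limit and lay at or near that floor after subtraction.

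Over the 6 arrays, the 3 genes whose brightest probe followed Arg1 most closely were the clock gene Per1 (Pearson r = 0.9990), Atp6v1d, a subunit of the vacuolar proton pump (0.9989), and Ctsb, the lysosomal protease cathepsin B (0.9988), out of 9576 genes compared. Their ratios of Glis2KD over Control were 0.574, 0.716 and 0.502, against 0.105 for Arg1. The points share the division into the same 2 groups of arrays, so the correlation is a description only.

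The surrounding pathway was followed in 5 lists with 66 genes, of which 56 were measured and 32 were above background. In all, 14 of the 56 were called by limma, 7 higher and 7 lower in Glis2KD, against 22.0% of all genes called. The called genes were all above background, 43.8% of the 32 against 42.5% of all genes above background. The limit is a cut on the mean of both groups. By group mean, Slc18b1 and Dohh passed it in Glis2KD only, with Control means of 103 and 131, so nothing is read from these shares. With background subtracted 8 of the 56 were called, and Aldh18a1, Dohh, Eif5a, Mat2b, Apip and Atp13a3 were not. The median log2 fold change of the 56 was 0.011, against 0.0040 over all genes.

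In the list on the urea cycle and nitric oxide, 1 of 13 genes was called higher and 0 lower. Only 5 of the 13 were above background, and 20.0% of these were called, against 42.5% of all genes above background. Ddah1 breaks down asymmetric dimethylarginine, an inhibitor of nitric oxide synthases, to citrulline. It read 6691, 7361 and 6929 on the Glis2KD arrays against 2486, 2619 and 2393 on the Control arrays. Its log2 fold change was 1.48 ± 0.082 (SE, limma adjusted p = 5.89e-12), higher on 3 of 3 knockdown arrays than on any control array. Its paralog Ddah2 had 0.063 and the mitochondrial ornithine carrier Slc25a15 had 0.19, neither called. The urea cycle enzymes Cps1 and Otc, which feed ornithine into citrulline in liver, were under the limit on all 6 arrays.

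Around glutamate, ornithine and proline, 1 of 8 genes rose and 1 fell. Of the 8, 6 were above background, and 33.3% of these were called, against 42.5% of all such genes. Pycrl, now also named Pycr3, reduces the product of ornithine aminotransferase to proline, and it averaged 1219 ± 113 in Glis2KD and 737 ± 60.7 in Control (SD, n = 3 each). Its log2 fold change was 0.73 ± 0.091 (SE, limma adjusted p = 2.38e-06). Aldh18a1, which makes the same intermediate from glutamate, averaged 2272 ± 68.5 in Glis2KD and 3095 ± 521 in Control (SD, n = 3 each), with -0.43 ± 0.099 (SE, limma adjusted p = 0.00263), and its dimmer probe, under the limit on average, gave 0.026. Aldh4a1, which takes the intermediate on to glutamate, had -0.25 with limma adjusted p = 0.0534 and did not pass, although its groups did not overlap.

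Of 10 measured genes of polyamine synthesis, degradation and ornithine decarboxylase control, 3 rose and 1 fell. Of the 10, 6 were above background, and 66.7% of these were called, against 42.5% of all such genes. Amd2 encodes an S-adenosylmethionine decarboxylase, which supplies the aminopropyl group for spermidine. It read 766, 756 and 733 on Glis2KD arrays and 540.4, 539 and 541 on Control arrays, a log2 fold change of 0.48 ± 0.079 (SE, limma adjusted p = 9.89e-05). Amd2 is a close copy of Amd1 and the probe may not separate them. Its dimmer probe gave 0.067. Eif5a, the translation factor that carries a residue made from spermidine, rose on 3 of 3 probes, with log2 fold changes of 0.25, 0.53 and 0.57. At its brightest probe, the smallest of the 3 changes, the call was lost without Glis2KD replicate 2 or 3 or any 1 Control array (limma adjusted p from 0.0599 to 0.158) and with the replicate number as a block (0.0623). Dohh, the hydroxylase that completes that residue, had 0.31 (limma adjusted p = 0.0126), with 2 control arrays under the limit. Its 50 neighbouring genes on chromosome 10 had a median of 0.34, against which it had -0.031, and its call was lost without Glis2KD replicate 1 or 2 or Control replicate 1 (limma adjusted p from 0.0525 to 0.0733). Sat2, a paralog of the spermidine acetyltransferase Sat1 that is thought to act on other substrates, read 154, 158 and 153 on Glis2KD arrays and 222, 232 and 219.6 on Control arrays, with -0.53 ± 0.080 (SE, limma adjusted p = 2.56e-05). The antizyme Oaz2 had -0.019 and was not called.

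In the methionine cycle and salvage list, which recycles the by-product of polyamine synthesis, 1 of 11 genes rose and 3 fell. Of the 11, 6 were above background, and 66.7% of these were called, against 42.5% of all such genes. Adi1, an enzyme late in the salvage route, averaged 2184 ± 173 in Glis2KD and 3688 ± 336 in Control (SD, n = 3 each), with a log2 fold change of -0.75 ± 0.090 (SE, limma adjusted p = 1.22e-06), and its dimmer probe, under the limit on average, gave -0.031. Apip, which acts earlier in the route, fell on 3 of 3 probes, by 0.40, 0.34 and 0.35 on the log2 scale. Enoph1, the enzyme between them, rose by 0.53 (limma adjusted p = 9.11e-05), next to 50 neighbouring genes with a median of 0.25. Mat2b, a regulatory subunit of methionine adenosyltransferase, had -0.34 (limma adjusted p = 0.0118), which was lost without Glis2KD replicate 2 or Control replicate 2 (0.110 and 0.0719). Of its dimmer probes above background, 1 had -0.53 and was called and 1 had -0.14 and was not (limma adjusted p = 8.01e-05 and 0.390), with overlapping groups at the one not called. Mtap, the first enzyme of salvage, had -0.24 and was not called.

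Among 14 measured transporters of cationic amino acids and polyamines, 1 rose and 2 fell. Of the 14, 9 were above background, and 33.3% of these were called, against 42.5% of all such genes. Slc18b1, a vesicular polyamine transporter, read 224, 222 and 235 on Glis2KD arrays, while the Control arrays read 107, 103 and 100.2, all under the limit. It was at least 1.65-fold higher in Glis2KD (limma adjusted p = 3.92e-10). Atp13a3, a P-type ATPase of polyamine uptake, averaged 448 ± 42.2 in Glis2KD and 590.2 ± 33.8 in Control (SD, n = 3 each), with -0.40 ± 0.088 (SE, limma adjusted p = 0.00191), and its dimmer probes, under the limit on average, gave -0.034 and 0.091. The mean of its 3 probes was not called (-0.11, limma adjusted p = 0.241). Slc7a4, a member of the cationic amino acid transporter family, had -0.52 ± 0.087 (SE, limma adjusted p = 0.000108), and its dimmer probe, under the limit on average, gave -0.014. The arginine carriers Slc7a1 and Slc7a2 had 0.080 and 0.13, near the limit, and were not called.

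**Figure D3:**
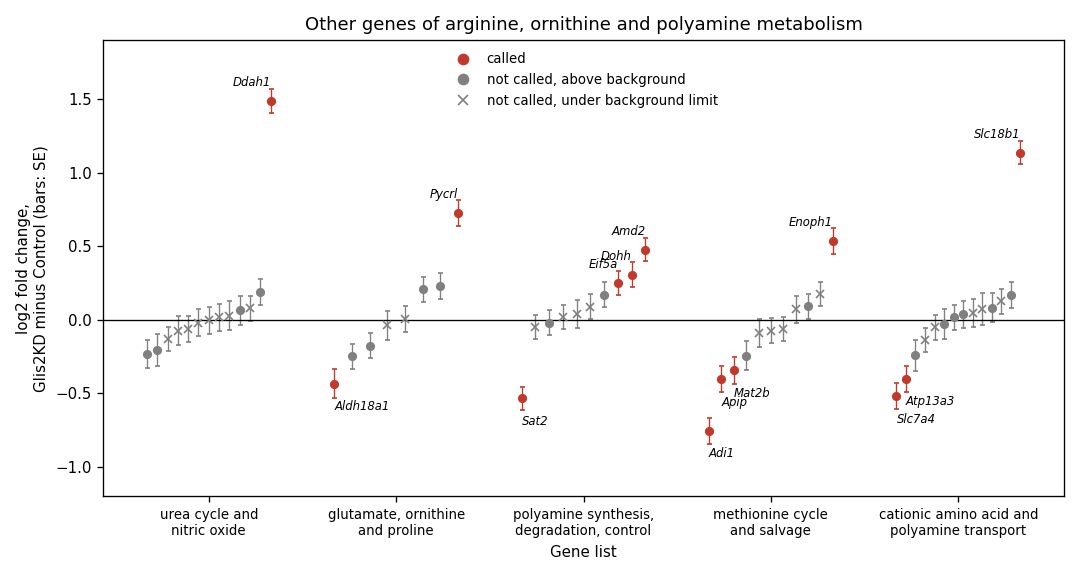
Log2 fold change, Glis2KD minus Control, with SE, of the 56 measured genes of 5 lists, 1 point per gene at its brightest probe, red where called and as crosses where the mean is under the background limit. Called genes lie on either side of 0, with Ddah1 at 1.48 highest and Adi1 at -0.75 lowest.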

How the data were processed

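The authors deposited 1 linear intensity per probe and array for 6 Illumina mouse arrays. Neither labels nor file name their software or normalization. The deposited intensities already shared 1 distribution (log2 medians differed by at most 0.00029) and ran from 85.4 to 52227. Whether background had been subtracted is not stated, and the most frequent value of 113.5 was taken as background. Values were floored at 16 and taken to log2 without further normalization. Of 45281 probes, 34885 had 1 gene symbol, 18 several and 10378 none. By Entrez identifier 34807 matched the RefSeq table of GRCm38.p6, used for names, chromosomes and neighbouring genes, as no build is stated for the probes. Lists were matched by symbol or listed synonym.

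Glis2KD was set against Control with limma 3.58.1 in R 4.3.3 (lmFit, eBayes), over all probes, with Benjamini-Hochberg adjustment over all of them and a threshold of 0.05. A gene was represented by its brightest probe. The fit was tested on simulated data. The members, lists, background limit and alternatives were chosen with earlier results of these data known. Named were all member probes, Glis2, called pathway genes above background (up to 5 a list), the 3 genes closest to Arg1, and some of the markers. Some pathway genes that were not called were named too, without a fixed rule. The number of arrays limits the precision. Probe sequences were not used here, so cross-hybridisation to related transcripts was not tested.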

Additional observations from a re-analysis of the deposited data

How the results depend on the processing

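Over 17 alternatives, 254 of 273 fold changes of member probes kept direction and side of the threshold. Arg1 at both probes, Oat, Srm at its brighter probes and Smox at ILMN_2597030 were called in every alternative run for them. Subtracting background had the widest effect: 3424 probes were called in place of 7065, with 7 member probes in place of 14, 4 member genes in place of 7 and 8 other pathway genes in place of 14. The cause was not tested. The Asl probe ILMN_1254257 changed sign relative to neighbouring genes (-0.18) and over the fits that left out 1 array (-0.074 to 0.11), and Dohh relative to neighbours (-0.031). Neither was called there. Replicate numbers are not stated to pair the arrays. Deviations of same-numbered arrays correlated at -0.087, -0.041 and -0.050, and those of the other pairs at -0.0075 to 0.064. This check cannot tell whether arrays shared a batch. With the replicate number as a block, 6790 probes, 14 member probes, 7 member genes and 13 other pathway genes were called. The fits with 1 array left out pool the spread of the others, and called 13 to 15 member probes and 12 to 15 other pathway genes. Fits with 1 value per gene gave no count of probes.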
